A study of Mus musculus with 18 samples.

Results

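The 10 genes described here, *Fasn*, *Acaca*, *Acly*, *Scd1*, *Elovl6*, *Me1*, *Thrsp*, *Pnpla3*, *Srebf1* and *Mlxipl*, build fatty acids from acetyl-CoA or control that pathway, and they were taken by gene symbol. All 10 were listed among the 21959 genes of the MEF table and among the 51826 genes of the liver table. The samples came from mice in which repeat B of the X-linked non-coding RNA *Xist* had been deleted in the whole body with CRISPR/Cas9 (RepB-/-), and from wild-type mice (WT). RNA-seq counts were available for 3 RepB-/- and 3 WT libraries of primary mouse embryonic fibroblasts (MEFs) and for 3 RepB-/- and 3 WT libraries of whole liver. The labels name no treatment in any group. The study writes RepB-/- for females without either copy of the repeat and RepB-/Y for males, and the labels of the libraries give neither age nor sex. Nothing used here states whether replicates were separate animals or cultures, so the p-values measure the spread between these libraries, which may be technical. The MEF samples also carry the tissue label Tail.

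Fatty acid synthesis turns surplus carbohydrate into fat. ATP citrate lyase makes cytosolic acetyl-CoA, acetyl-CoA carboxylase converts it to malonyl-CoA, fatty acid synthase assembles palmitate with NADPH that malic enzyme helps to supply, and an elongase and a desaturase then lengthen and desaturate the chain. In liver the pathway is known to be switched on by insulin through the transcription factor SREBP-1c, encoded by *Srebf1*, and by sugar through ChREBP, encoded by *Mlxipl*.

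The MEF libraries totalled 11540344 to 20587556 counts each, and the liver libraries 37682201 to 51542709. The labelled tissues carried their markers. *Alb*, the hepatocyte secretory protein, stood between 81930 and 163200 CPM (counts scaled to a common library size, here with TMM factors) in liver, and *Col1a1*, a fibroblast collagen, between 5076 and 9753 CPM in MEFs. The liver libraries were not alike. Both replicate 1 livers carried genes of fetal liver. *Afp*, *H19*, *Igf2*, *Dlk1* and *Gpc3* summed to 5970 CPM in RepB-/- and 4753 CPM in WT, against 4.50 to 20.2 CPM in the other livers. *Lin28b*, also on this list, had 0 counts in all 6 livers. The library labelled RepB-/- replicate 2 held 4342 counts of 4 Y-linked genes and 4 counts of *Xist*, which goes against a female genotype, whereas the other liver libraries held at most 1 Y-linked count and at least 14494 counts of *Xist*. The MEF table used here gives no *Xist* value, so the targeted gene could not be read there. Because of these livers, the liver genotypes are compared over all libraries and within replicates 2 and 3, and the main differences also in the replicate 3 pair alone, which leaves out the library with Y-linked counts.

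Both tissues expressed the pathway, with different members in front. In WT MEFs, CPM per kilobase of gene length was highest for *Acly* at 52.04 ± 3.89 (SD, n = 3), followed by *Fasn* at 39.99 ± 1.31, *Scd1* at 36.0 ± 3.41, *Me1* at 30.5 ± 4.18, *Srebf1* at 16.5 ± 0.879, *Acaca* at 4.45 ± 0.240 and *Elovl6* at 2.73 ± 0.369. The libraries of *Fasn* and *Scd1* overlapped, as did those of *Scd1* and *Me1*, whereas each of the other neighbours in this order stood apart. *Thrsp*, *Pnpla3* and *Mlxipl*, which are known for their expression in liver and fat, had 0 to 6 counts in each MEF library and did not enter the test. In the WT livers of replicates 2 and 3, the level per length was given as the deposited TPM, and *Scd1* led at 660 ± 122.7 TPM (SD, n = 2). It was followed by *Thrsp* at 239 ± 41.9, *Srebf1* at 183 ± 14.8, *Mlxipl* at 180 ± 12.5, *Acly* at 166 ± 34.5, *Fasn* at 110 ± 23.7, *Me1* at 52.5 ± 5.22, *Elovl6* at 28.6 ± 7.04, *Acaca* at 20.8 ± 1.96 and *Pnpla3* at 3.66 ± 0.538 TPM. The values of *Srebf1*, *Mlxipl* and *Acly* overlapped with their neighbours in this order, and the others did not. The tables were counted separately, so the scales of the tissues were not compared.

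The replicate 1 livers held far less of most lipogenic mRNAs than the other 4 livers, in both genotypes. *Scd1*, the desaturase that makes oleate and palmitoleate, stood at 19.7 CPM in RepB-/- and 20.2 CPM in WT of replicate 1. It stood at 2642 and 1326 CPM in RepB-/- replicates 2 and 3, and at 1661 and 2132 CPM in the WT libraries with those numbers. The replicate 1 livers were thus far below each of the others, by 97.1-fold in a fit with genotype (log2 difference −6.60 ± 0.466, SE). These differences are descriptions without a test, since the split by replicate number was proposed with the profiles of these libraries known.

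*Thrsp*, which encodes the lipogenic protein Spot 14, had 3.02 CPM in RepB-/- and 0.580 CPM in WT of replicate 1, from 153 and 26 counts. The other RepB-/- livers had 115 and 65.7 CPM and the other WT livers 206 and 158 CPM, and the log2 difference was −6.18 ± 0.949. *Elovl6*, the elongase that extends palmitate to stearate, had 3.20 and 6.02 CPM in RepB-/- and WT of replicate 1, against 35.3 and 24.2 CPM in the other RepB-/- livers and 117 and 78.6 CPM in the other WT livers. Its log2 difference was −3.61 ± 0.348, which is 12.2-fold. *Fasn*, the synthase itself, had 47.1 CPM in RepB-/- and 36.5 CPM in WT of replicate 1. Its other values were 225.9 and 133 CPM in RepB-/- and 638 and 432 CPM in WT, with a log2 difference of −2.79 ± 0.562. For all 3 genes both replicate 1 livers lay below each of the other 4.

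The same held, with smaller differences, for *Mlxipl* (−2.16 ± 0.232), *Me1* (−2.04 ± 0.345), *Acly* (−1.50 ± 0.421) and *Acaca* (−0.84 ± 0.224). In all, 8 of 10 members lay lower in replicate 1 without overlap, beside 21.3% of the 16080 genes tested, and 0 of 10 lay higher without overlap, beside 23.0%. The median log2 difference was −2.10 over the members and −0.00302 over all genes tested. *Srebf1* and *Pnpla3* did not take part. *Srebf1*, whose product activates most of the other members, had 343.2 CPM in RepB-/- and 260.8 CPM in WT of replicate 1, within the 101 to 394 CPM of the other livers. *Pnpla3*, a lipid droplet acyl hydrolase under SREBP-1c control, had 7.03 and 9.35 CPM, within the 1.49 to 11.2 CPM of the others.

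**Figure D1:**
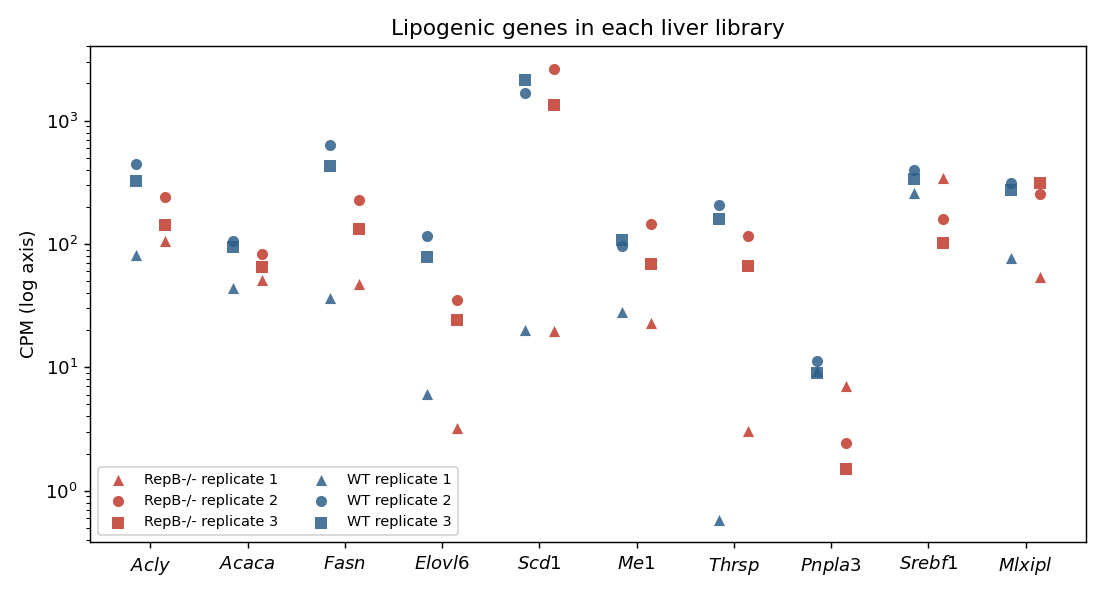
CPM of the 10 genes in each of the 6 liver libraries on a log axis, with RepB-/- in red and WT in blue and a symbol for each replicate number. The triangles of replicate 1 lie below the circles and squares for 8 genes but not for *Pnpla3* and *Srebf1*, where the RepB-/- circles and squares are lowest.

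Other enzymes around the pathway were split, and their counts without overlap stand beside the same 21.3% of all genes lower and 23.0% higher. Of 11 genes that supply substrate and NADPH, 4 were lower in replicate 1 without overlap, among them *Acss2*, which makes acetyl-CoA from acetate (−3.90), while *G6pdx*, the X-linked first enzyme of the pentose phosphate pathway, was higher (0.96). Of 16 other enzymes of acyl chain synthesis tested, 8 were lower and 5 higher, with *Acacb*, the carboxylase that restrains fatty acid oxidation, at −5.09 and *Scd2* at 1.63. Among 14 genes of glycerolipid synthesis and lipid droplets 3 were lower, and among 23 regulators 10 were lower and 4 higher, with *Insig1*, the SREBP retention protein, at −3.54. The 3 of 14 and the 4 of 23 are near or under these shares. The medians of these lists were −0.48, −0.46, −0.35 and −0.33. The named genes of this paragraph were chosen after their values had been seen.

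**Figure D2:**
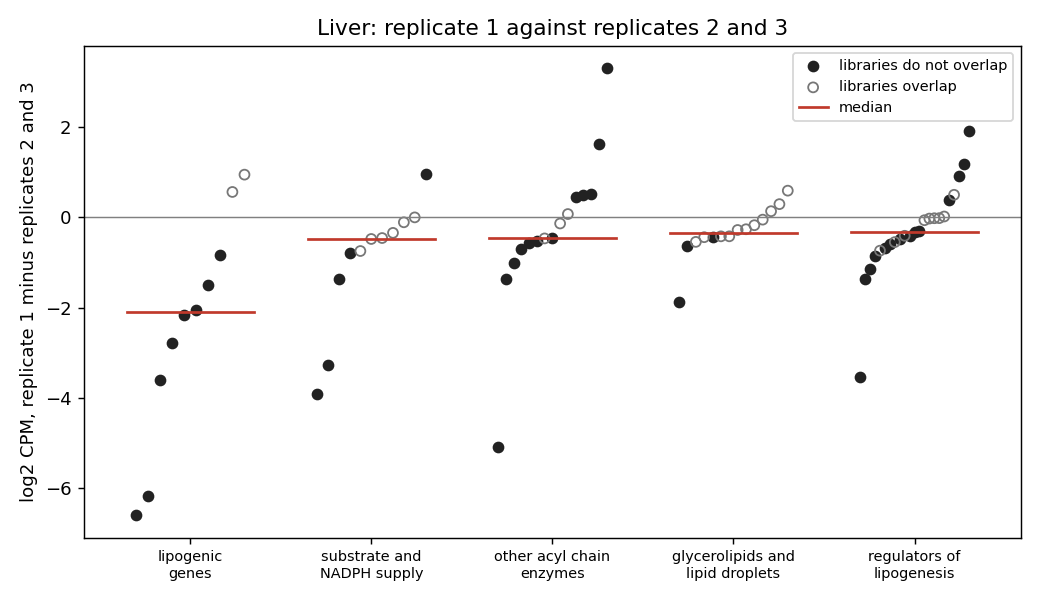
Log2 difference in CPM between the replicate 1 livers and those of replicates 2 and 3, fitted with genotype, for the 10 lipogenic genes and 4 lists of related genes, 1 point per tested gene, filled where the libraries do not overlap, with the list median in red. The lipogenic genes have a median of −2.10, the other lists between −0.48 and −0.33; *Elovl3*, with 0 counts in both replicate 1 livers, is not drawn.

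The replicate 1 livers also differed in cell type markers. The 8 fibroblast markers summed to 1357 and 897 CPM in RepB-/- and WT of replicate 1, against 259 to 448 CPM in the others. The 10 hepatocyte markers summed to 157900 and 118800 CPM, against 133200 to 209100 CPM. The 8 erythroid markers summed to 4504 and 1625 CPM, against 258 to 2249 CPM. Of the 8 adipocyte markers, *Adipoq*, *Lep*, *Plin1* and *Ucp1* were at 0 counts in all 6 livers, *Cfd* and *Retn* had 0 to 6 counts, and *Fabp4* had 7.65 to 35.2 CPM. *Car3*, which muscle and liver also express, had 184.5 and 69.4 CPM in RepB-/- and WT of replicate 1, against 3397 to 6338 CPM in the others, and so was low in the same livers as the lipogenic genes. In bulk tissue fewer cells of a type and less RNA per cell cannot be told apart, and the part of fetal liver genes or of these markers in the result was not tested.

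Between the genotypes, no lipogenic gene passed the test in liver. With all 6 libraries 0 of 10 members were called higher, beside 0.00622% of genes, and 0 were called lower, beside 0.0311%. In edgeR 1 member had an unadjusted p under 0.05, beside 502 of the 16080 genes tested. With DESeq2 1 member had such a p as well, and 0 were called. With replicate number as a block, 0 members were called again (0.0187% of genes higher, 0.0311% lower). The numbers set the replicate 1 livers apart from the others but did not pair replicates 2 and 3. With this block the lowest adjusted p was that of *Elovl6* (log2 −1.46 ± 0.233, adjusted p = 0.297, edgeR). The gene with the unadjusted p was *Pnpla3*. It stood at 7.03, 2.44 and 1.49 CPM in RepB-/- and at 9.35, 11.2 and 9.00 CPM in WT, so that every RepB-/- library lay below every WT library. The log2 difference was −1.43 ± 0.573, with an unadjusted p of 0.0428 and an adjusted p of 1.00. It was 1 of 10 members without overlap and lower in RepB-/-, beside 4.66% of genes, and 0 members were higher without overlap, beside 3.38%. In the annotation 105 bases of its exons, or 6.78%, are shared with *Gm49513* on the same strand.

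Within replicates 2 and 3, 7 of 10 members lay lower in both RepB-/- livers than in both WT livers, beside 21.9% of genes, and 0 lay higher, beside 21.2%. This comparison of 2 libraries with 2 was chosen after the data had been seen. *Fasn* was 2.97-fold lower (log2 −1.57 ± 0.370) from the values given above, with log2 differences of −1.50 between the replicate 2 livers and −1.70 between the replicate 3 livers. *Elovl6* was 3.29-fold lower (−1.72 ± 0.315), with −1.73 and −1.70 in the 2 pairs. *Pnpla3* was 5.10-fold lower (−2.35 ± 0.361), with −2.20 and −2.60. The numbers do not pair replicates 2 and 3, so how alike the 2 pairs look depends on which libraries are set together. RepB-/- replicate 3, with 1 Y-linked count, had 133 CPM of *Fasn*, 24.2 CPM of *Elovl6* and 1.49 CPM of *Pnpla3*. Each of these values lay below both WT livers.

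*Srebf1* had 158 and 101 CPM in these RepB-/- livers and 394 and 338.5 CPM in the WT livers, a 2.82-fold lower level (log2 −1.49 ± 0.301). *Acly* had 239 and 142 CPM in RepB-/- and 446 and 323 CPM in WT, a 2.02-fold lower level. *Thrsp* was 2.01-fold lower and *Acaca* 1.35-fold lower, again without overlap. *Scd1*, *Me1* and *Mlxipl* overlapped between the genotypes, with log2 differences of 0.07, 0.09 and −0.04. For *Scd1* and *Me1* the overlap came from replicate 2 of RepB-/- alone, which also carried the Y-linked reads. RepB-/- replicate 3 had 1326 CPM of *Scd1*, below the 1661 and 2132 CPM of the WT livers. It had 68.5 CPM of *Me1*, below their 95.9 and 107 CPM. In the replicate 3 pair the log2 differences were −0.69 for *Scd1*, −0.65 for *Me1* and 0.19 for *Mlxipl*. The median was −1.01 over the members, while that of the 11 supply genes was −0.31 and that of the 14 glycerolipid and lipid droplet genes was 0.13. Without overlap, 6 of the 11 supply genes were lower and 0 higher, beside 21.9% and 21.2% of genes. The other lists moved both ways. Of the 14 glycerolipid genes 3 were lower and 6 higher, of the 16 other acyl chain enzymes 4 and 6, and of the 23 regulators 7 and 7. Of the 10 members 6 had an unadjusted p under 0.05, and 0 passed the adjusted threshold, with *Pnpla3* lowest at an adjusted p of 0.17 (edgeR). The genes with such an unadjusted p were not counted over all genes in this fit, so the 6 have no share beside them. In this fit 0.00624% of genes were called in each direction.

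In the replicate 1 livers 5 of these 7 genes differed in the other direction. *Fasn*, *Acly*, *Acaca*, *Srebf1* and *Thrsp* were higher in RepB-/- than in WT of replicate 1 and lower in RepB-/- in replicates 2 and 3, which makes 5 of 10 members beside 12.7% of genes. The same pattern was seen in 4 of the 11 supply genes. For *Thrsp*, near the bottom of its range in replicate 1, the log2 difference was 2.38 there, and for the other 4 it lay between 0.21 and 0.40. *Elovl6* (−0.91) and *Pnpla3* (−0.41) were lower in RepB-/- in replicate 1 too. Whether the difference between genotypes depends on replicate was not tested.

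**Figure D3:**
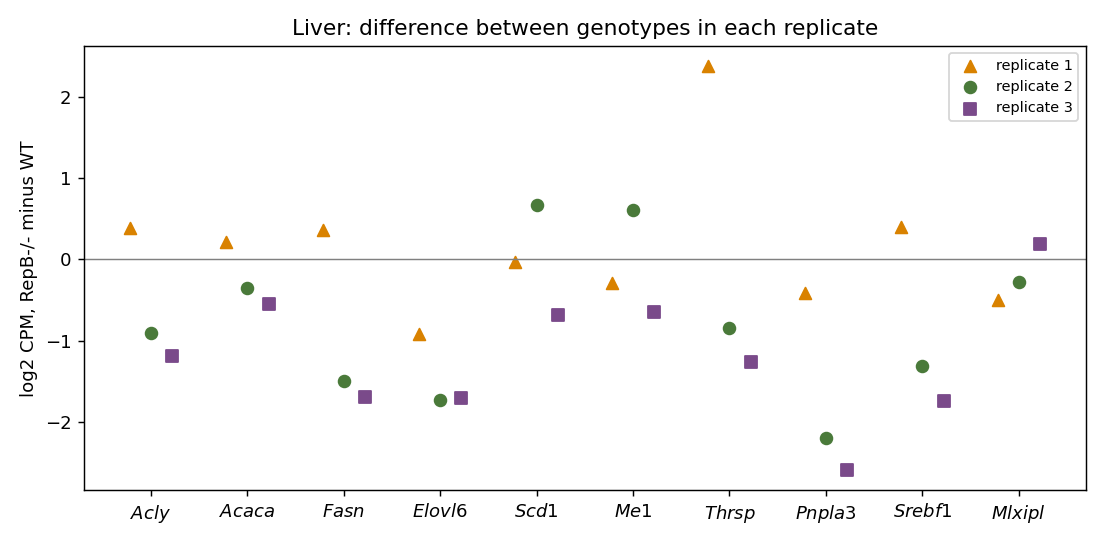
Log2 CPM of RepB-/- minus WT in liver for each of the 10 genes, with 1 symbol per replicate number, so that each point compares 2 libraries. The replicate 2 and 3 points lie below 0 for 7 genes, and those of replicate 1 lie above 0 for 5 of these; *Scd1*, *Me1* and *Mlxipl* scatter on both sides.

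Markers of blood differed between the genotypes in all 3 replicates. The 8 erythroid markers summed to 2249 and 1393 CPM in RepB-/- replicates 2 and 3 and to 312 and 258 CPM in WT. In replicate 1, where 5 lipogenic genes were higher in RepB-/-, they summed to 4504 CPM in RepB-/- and 1625 CPM in WT. Within replicates 2 and 3, 6 of the 8 were higher in RepB-/- without overlap, beside 21.2% of genes. *Hba-a1*, an alpha globin, had 718 and 466 CPM against 94.5 and 66.0 CPM. The summed fibroblast markers were 448 and 381 CPM against 294 and 259 CPM. Of these 8 markers, 4 were higher without overlap, beside 21.2% of genes, and 0 were lower. The adipocyte and endothelial gene *Fabp4* had 16.9 and 21.6 CPM against 9.07 and 7.65 CPM. *Car3*, of the same list, overlapped at 6338 and 3397 CPM against 4847 and 3792 CPM. The summed hepatocyte markers also overlapped, at 133200 and 209100 CPM against 154100 and 138500 CPM. The part of all these markers in the lower lipogenic mRNAs was not tested.

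Of the pathway lists, 0 genes passed in liver with all 6 libraries in edgeR or DESeq2. An unadjusted p under 0.05 (edgeR) was found for 3 of 14 glycerolipid and lipid droplet genes and for 1 of 23 regulators. It was found for 0 of the 11 supply genes and the 16 other acyl chain enzymes, beside 502 of all 16080 genes tested. The regulator was X-linked *Mid1ip1*, which encodes a partner of Spot 14 that activates acetyl-CoA carboxylase. It had 17.2, 16.9 and 12.1 CPM in RepB-/- and 15.6, 92.9 and 33.3 CPM in WT, so that 1 WT library carried most of the log2 difference of −1.62 ± 0.619 (adjusted p = 1.00). The other X-linked genes of the lists differed by 0.48 ± 0.449 (*G6pdx*) and 0.375 ± 0.367 (*Mbtps2*, the site-2 protease of SREBP), both with an adjusted p of 1.00.

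The promoters of 4 of the 5 members that were lower both in replicate 1 and, within replicates 2 and 3, in RepB-/- are shown as the stretches just upstream of their RefSeq starts. The gene bounds given with the liver counts start *Thrsp* at 97417730 and *Elovl6* at 129532355. By those bounds both windows reach into the gene, and both marked matches of *Thrsp* lie inside it. The window listed for the fifth, *Acaca*, lies inside the gene and held none of the motifs searched. The sequences are the 250 bases before the annotated start from RefSeq on GRCm38.p6, written 5′ to 3′ on the strand of the gene, which is minus for *Fasn* (chr11:120824548-120824797), *Acly* (chr11:100528001-100528250) and *Thrsp* (chr7:97417551-97417800) and plus for *Elovl6* (chr3:129532136-129532385). Capitals mark CCAAT, which NF-Y binds, and GGGCGG, the GC box of Sp1, on either strand.
Fasn: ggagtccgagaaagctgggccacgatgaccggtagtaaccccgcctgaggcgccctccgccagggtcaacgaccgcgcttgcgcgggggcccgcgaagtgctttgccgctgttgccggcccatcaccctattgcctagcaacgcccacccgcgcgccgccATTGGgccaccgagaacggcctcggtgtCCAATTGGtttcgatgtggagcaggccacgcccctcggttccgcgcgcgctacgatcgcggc
Acly: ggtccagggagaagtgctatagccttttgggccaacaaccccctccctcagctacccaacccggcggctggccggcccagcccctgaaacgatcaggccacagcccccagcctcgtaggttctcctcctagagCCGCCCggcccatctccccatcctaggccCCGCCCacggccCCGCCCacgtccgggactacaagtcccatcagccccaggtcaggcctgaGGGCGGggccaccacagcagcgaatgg
Thrsp: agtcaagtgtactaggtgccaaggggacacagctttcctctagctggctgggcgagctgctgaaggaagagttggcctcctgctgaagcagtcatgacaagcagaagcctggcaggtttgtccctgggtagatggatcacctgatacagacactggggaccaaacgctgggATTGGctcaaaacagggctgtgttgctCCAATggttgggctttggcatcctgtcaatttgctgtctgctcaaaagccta
Elovl6: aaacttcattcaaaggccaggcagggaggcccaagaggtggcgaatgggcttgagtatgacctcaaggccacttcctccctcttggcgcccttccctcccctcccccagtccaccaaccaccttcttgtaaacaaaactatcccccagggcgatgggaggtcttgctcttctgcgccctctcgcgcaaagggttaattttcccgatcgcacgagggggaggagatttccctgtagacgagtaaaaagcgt
*Fasn* held 3 matches to CCAAT, of which 2 overlap head to head, and *Thrsp* held 2. *Acly* held 4 matches to GGGCGG, and *Elovl6* held neither. Windows were found for 9 of 10 members, 13 windows in all. CCAAT matched in 7 of them, beside 33.8% of all 32851 windows of this length, and GGGCGG in 6, beside 32.7%. The E-box CACGTG matched in 1, upstream of *Mlxipl*, beside 6.02%, and the sterol element core TCACNCCAC in 1, before another *Mlxipl* start, beside 1.05%. A match is a string of letters and not a shown binding site.

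In MEFs, 1 of the 7 lipogenic genes tested differed between the genotypes. *Acaca*, which encodes the carboxylase that commits acetyl-CoA to fatty acid synthesis, had 97.5, 86.7 and 98.1 CPM in RepB-/- and 71.8, 76.0 and 79.95 CPM in WT. The genotypes did not overlap, with RepB-/- on top. The difference was 1.24-fold (log2 0.31 ± 0.0774, adjusted p = 0.0064, edgeR). The adjusted p ranged from 0.000609 to 0.0302 over the alternatives, including each library left out in turn. The count of 1 of 7 members called higher stood beside 19.4% of the 13306 genes tested, and 0 called lower beside 19.7%, so the members did not exceed the share of all genes.

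*Fasn* had 417 CPM, 394 CPM and 408 CPM in RepB-/- and 423, 451 and 440 CPM in WT. Its libraries did not overlap either, but the log2 difference of −0.11 ± 0.0683 did not pass (adjusted p = 0.231). Without overlap, 1 of 7 members was higher, beside 26.4% of genes, and 1 was lower, beside 25.8%. *Acly* (log2 0.06 ± 0.0735), *Elovl6* (0.04 ± 0.125), *Me1* (0.04 ± 0.0916), *Scd1* (0.13 ± 0.0820) and *Srebf1* (0.12 ± 0.0732) overlapped between the genotypes, with adjusted p between 0.211 and 0.812. The median log2 difference was 0.06 over the 7 members and 0.0003 over all genes tested.

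**Figure D4:**
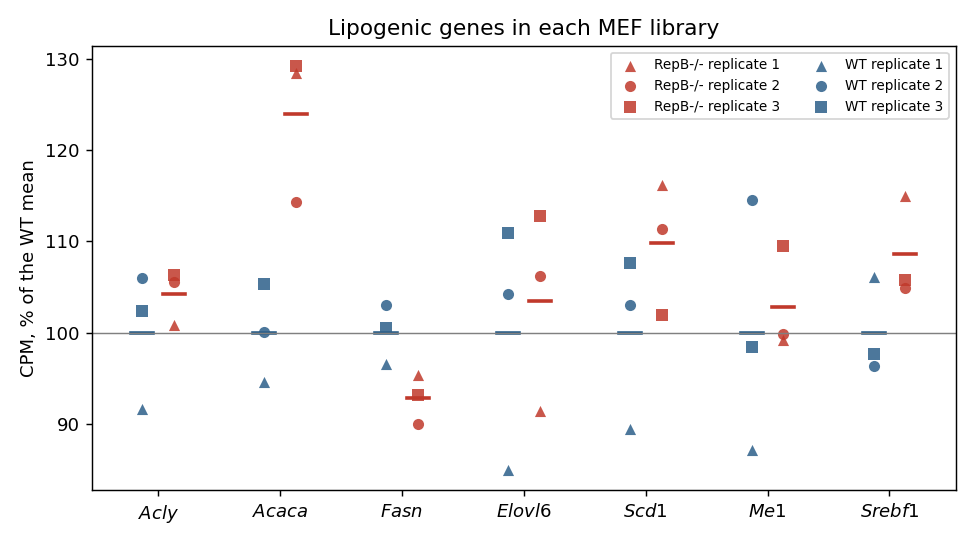
CPM of the 7 tested genes in each MEF library as a percent of the WT mean of the gene, with RepB-/- in red, WT in blue and bars at the group means; the axis does not start at 0. *Acaca* lies between 114.3% and 129.2% in RepB-/-, above all WT libraries, and *Fasn* between 90.0% and 95.3%, below them.

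Genes of fat storage were mostly lower in RepB-/- MEFs. Of the 11 glycerolipid and lipid droplet genes tested, 8 fell, beside 19.7% of all genes, 0 rose, beside 19.4%, and 3 did not pass. *Lpin1*, a phosphatidate phosphatase on the way to triglyceride, had 22.2, 22.3 and 19.8 CPM in RepB-/- and 36.2, 33.5 and 34.2 CPM in WT (log2 −0.69 ± 0.0920, adjusted p = 9.13e-05). *Pnpla2*, the first lipase of triglyceride breakdown, had 20.4, 20.1 and 23.9 CPM against 32.9, 31.9 and 29.2 CPM (−0.55 ± 0.101, adjusted p = 0.000912). *Plin2*, which coats lipid droplets, had 227 CPM, 258 CPM and 295 CPM against 356, 406 and 376 CPM (−0.55 ± 0.0924, adjusted p = 0.000499). In these 3 genes the libraries did not overlap. The median over the list was −0.31. The count of 8 fell to 4 without RepB-/- replicate 2 and to 5 without RepB-/- replicate 1, without WT replicate 2 or with DESeq2, and the 3 genes named kept their calls under each alternative.

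The other lists moved both ways, and their counts stand beside the same shares of all genes. Among 9 supply genes tested, *Idh1*, an NADPH-making isocitrate dehydrogenase, rose (0.51 ± 0.0899, adjusted p = 0.00065), while *Tkt* (−0.53 ± 0.0679) and *Pgd* (−0.25 ± 0.0723) of the pentose phosphate pathway fell. The call of *Pgd* was lost without RepB-/- replicate 1 (0.0682) or 2 (0.0745). X-linked *G6pdx* had a log2 difference of 0.02 ± 0.0711 (adjusted p = 0.859). Among 14 other acyl chain enzymes *Oxsm* rose (0.45 ± 0.154) and *Mecr* fell (−0.44 ± 0.0836), which both act in mitochondrial fatty acid synthesis. *Oxsm* was no longer called under 5 of 11 alternatives, with an adjusted p of up to 0.148.

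Of 23 regulators 5 rose and 6 fell, beside 19.4% and 19.7% of all genes. X-linked *Mbtps2*, whose protease releases SREBP from the Golgi, had 27.6, 29.3 and 33.1 CPM in RepB-/- and 18.1, 19.9 and 19.9 CPM in WT, a rise of 0.63 ± 0.102 (adjusted p = 0.000338). The thyroid hormone receptor gene *Thrb* rose by 0.79 ± 0.170 and the AMP-activated kinase subunit gene *Prkaa1* by 0.40 ± 0.0751. The coactivator gene *Ppargc1b* (−1.73 ± 0.416), *Prkaa2*, which encodes the other catalytic subunit of that kinase (−1.18 ± 0.249), and X-linked *Mid1ip1* (−0.48 ± 0.132, adjusted p = 0.0113) fell. *Ppargc1b* rested on few counts, 7 to 11 in each RepB-/- library and 18 to 27 in each WT library. The call of *Mid1ip1* was lost without RepB-/- replicate 3 (adjusted p = 0.0576) or WT replicate 3 (0.0546).

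**Figure D5:**
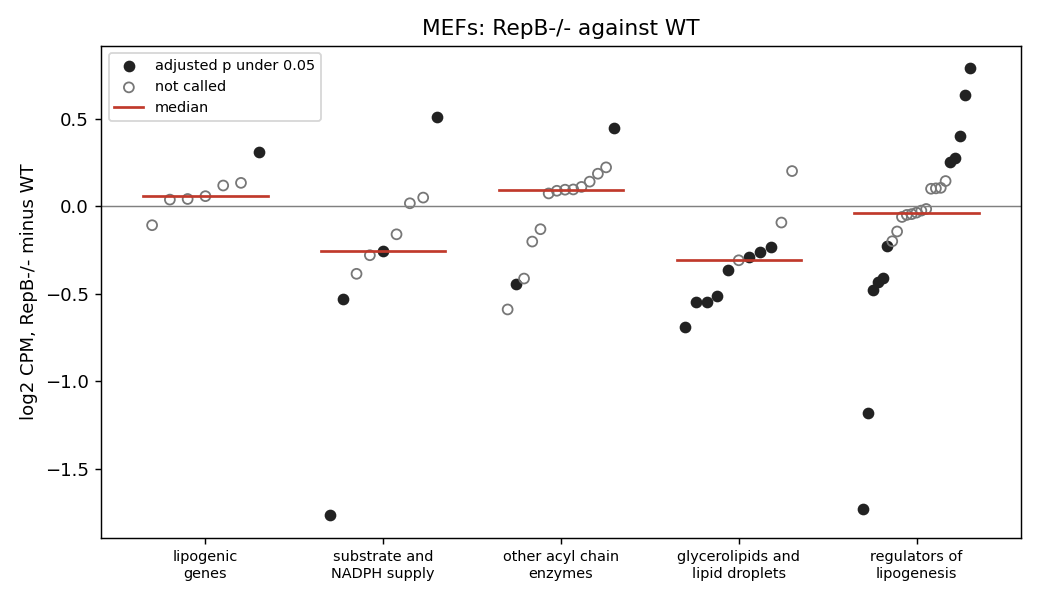
Log2 CPM of RepB-/- minus WT in MEFs for the 7 lipogenic genes and 4 lists of related genes, 1 point per tested gene, filled where the adjusted p was under 0.05, with the list median in red. In the glycerolipid and lipid droplet list 8 of 11 points are filled and all 8 lie below 0, whereas 1 of 7 lipogenic genes is filled.

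Cell type markers also differed between the MEF genotypes. *Adipoq*, the adipocyte hormone adiponectin, had 0 counts in each RepB-/- library and 0.722 to 0.928 CPM in WT, from 9 to 15 counts. The WT libraries had a count in 17191 to 17664 genes, against 15453 to 15545 in RepB-/-. The 10 hepatocyte markers also summed higher in WT, at 1.36 to 2.97 CPM against 0.557 to 0.815 CPM. The part of such low WT counts in the adipocyte markers was not tested. Of the 4 adipocyte markers tested 3 fell, beside 19.7% of all genes, 2 of them under each alternative. *Fabp4* rose (0.26 ± 0.0774), beside 19.4% of all genes, a call lost without RepB-/- replicate 1 (adjusted p = 0.0735, edgeR). The 8 fibroblast markers summed to 16980, 15140 and 13780 CPM in RepB-/- and 9290, 12250 and 12130 CPM in WT, with *Col1a1* the largest part. Of these 8, 5 rose, beside 19.4% of all genes, and *Col1a2* and *Lum* did not pass. *Thy1* fell (−0.28 ± 0.0850, adjusted p = 0.0196, edgeR), beside 19.7%, a call lost under 4 of 11 alternatives. The 6 macrophage and leukocyte markers summed to 116.9 to 150.6 CPM against 49.6 to 64.6 CPM. *Lyz2* made up most of the latter sum in RepB-/- (90.8 to 120 CPM, against 20.3 to 42.7 CPM in WT). Of the 5 macrophage and leukocyte markers tested 3 rose, beside 19.4% of all genes. *Cd68* fell (−0.62 ± 0.202, adjusted p = 0.0267, edgeR), a call lost under 3 of 11 alternatives (adjusted p of up to 0.126). *Ptprc* differed by 0.34 ± 0.386 (adjusted p = 0.512, edgeR). The part of other cell types in the lower lipid droplet genes was not tested.

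The genes whose profile over the 6 libraries was most like that of *Fasn*, by the root mean square difference of centred log2 CPM, were *Ddc* (0.252), *Gm45299* (0.281) and *Mvd* (0.294) in liver. *Ddc* had 24.1, 128 and 72.0 CPM in RepB-/- and 16.0, 213 and 204 CPM in WT. Among the members *Elovl6* came nearest to *Fasn*, at rank 21 of 16079 genes (0.504), followed by *Acly* at rank 113, and *Scd1* was farthest at rank 12404. The profiles were not scaled, so the rank also reflects the size of a change. *Scd1* and *Fasn* were both lower in replicate 1, but by 97.1-fold and 6.92-fold. In MEFs the nearest were *Cnn3* (0.0141), *Spns1* (0.0151) and *Cyb5r1* (0.0167), and the nearest member was *Acly* at rank 1830 of 13305.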

How the data were processed

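The authors prepared poly(A) RNA libraries, sequenced paired ends, used Cutadapt for trimming and Hisat2 for alignment, as stated for RNA of primary MEFs; for liver these steps are not stated separately. The labels list Trim Galore 0.4.1, STAR 2.7.0, HTSeq 0.12.4, DESeq2 and deepTools 3.5.0 without a role. The counting tool and annotation are not given in the sources used here. The deposited values used were raw counts per gene, and, for liver, TPM made by the authors; for MEFs CPM was divided by the deposited gene length. A further 12 per-library columns were not used, and 6 libraries of brain are not analysed here. Liver coordinates are GRCm38 (8 of 10 members have the bounds of GENCODE M21), and those of MEFs are of another build.

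Counts of MEFs and of liver were fitted separately (edgeR 4.0.16, R 4.3.3), with TMM, filterByExpr at its defaults, a quasi-likelihood fit, a two-sided test and Benjamini-Hochberg adjustment over all genes tested, called at 0.05. Standard errors come from the same fit. DESeq2 1.42.0 and the other alternatives named in the closing section were also run. The scripts were tested on simulated data. Intervals between libraries rest on 3 per genotype, and the depth limits genes with few counts. Within genotypes all pairs of libraries differed beyond counting noise (chi-square per degree of freedom 3.69 to 813). In liver it was 596 between RepB-/- replicates 2 and 3 and 57.0 between WT replicates 2 and 3. Between WT replicate 1 and WT replicates 2 and 3 it was 538 and 560. The 2 RepB-/- livers of replicates 2 and 3 were thus as unlike each other as these.

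Genotype and replicate number were taken from the letter and digit of the library titles. In liver, the replicate 1 libraries deviated together (r = 0.71 across genes, after removal of genotype means). Replicates 2 and 3 correlated with the same number (r = 0.361 and 0.365) no more than with the other number (0.406 and 0.404). The numbers thus set replicate 1 apart but do not pair replicates 2 and 3. In MEFs libraries with the same number did not deviate together. The members, the pathway lists and the split of replicate 1 were chosen with earlier results of these data known. Named were all members, list genes that passed (up to 3 per direction by size), X-linked list genes, markers at 0 or highest, and the 3 genes most like *Fasn*; 1 list gene that passed is not reported here. Figures and tables were made with Python 3.11.15, pandas 2.3.3 and matplotlib 3.10.9.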

Additional observations from a re-analysis of the deposited data

Results flagged for a closer look

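In liver, 5 of the 10 genes differed between genotypes in one direction in replicate 1 and in the other in both replicates 2 and 3. The log2 difference of RepB-/- minus WT in replicate 1 was 0.37 for *Fasn*, 0.21 for *Acaca*, 0.39 for *Acly*, 0.40 for *Srebf1* and 2.38 for *Thrsp*, while each was below 0 in the other pairs. The difference between the replicates was not tested, since replicate 1 gives a single pair.

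The liver library labelled RepB-/- replicate 2 held 4342 counts of Y-linked genes (*Uty*, *Kdm5d*, *Eif2s3y* and *Ddx3y*), where the WT livers held 0. These counts enter no comparison of genotypes. Without that library the log2 difference between genotypes was −2.04 for *Fasn* (−1.45 with it), −2.30 for *Elovl6* (−1.69 with it) and −1.21 for *Pnpla3* (−1.43 with it). The replicate 1 liver then weighs more in RepB-/- than in WT, and this fit has no term for it. These shifts are therefore no measure of the removed library alone. In the replicate 3 pair the log2 difference was −1.70 for *Fasn*, −1.70 for *Elovl6* and −2.60 for *Pnpla3*.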

How the results depend on the processing

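The alternatives were DESeq2, the size factors of DESeq2 in edgeR, TMM from autosomal genes alone, all genes with a count, replicate number as a block, each library left out in turn and, in liver, a term for replicate 1; replicates 2 and 3 alone were added with the data in view. In MEFs 1 member was called under each, *Acaca*, and the number of genes called stayed between 3956 and 6181, with 5006 under the block, although same-numbered MEF libraries did not deviate together (r = −0.011, −0.0416 and −0.00348). In liver 0 members were called under each, so that no call of a member depended on the block. The genes called in liver numbered 6, against 80 with DESeq2, 0 with all genes that have a count, 2 in replicates 2 and 3 alone, 8 with the block and 0 to 4 with a library left out. The cause was not tested.

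Differences close to 0 changed sign. In MEFs, leaving out a library gave −0.0559 to 0.13 for *Elovl6* and −0.0480 to 0.15 for *Me1*. In liver it gave −0.92 to 0.66 for *Scd1*, −0.76 to 0.48 for *Me1* and −0.50 to 0.37 for *Mlxipl*. With the liver block *Scd1* came to −0.0176 and *Me1* to −0.11, and *Me1* to −0.0397 with the term for replicate 1. Of replicate 1 against replicates 2 and 3, the median over the members stayed between −2.15 and −1.97, while *Srebf1* ran from −0.50 to 1.40 and *Pnpla3* from −0.12 to 1.83, both below 0 without RepB-/- replicate 1. With 3 libraries per genotype and a biological coefficient of variation of 51.2% in liver, against 9.06% in MEFs, a liver gene had to differ far more than a MEF gene to be called. That 51.2% includes the difference between replicate 1 and the other livers. It was 33.7% with replicate number as a block.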

Other observations

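Acyl chain genes outside the lipogenic set stood out in the liver library with Y-linked counts. *Elovl3*, an elongase of very long saturated chains, had 172 CPM in that library, labelled RepB-/- replicate 2, and 2.07 CPM in RepB-/- replicate 3, and 2.09 and 2.01 CPM in WT replicates 2 and 3, with 0 in both replicate 1 livers. *Scd3*, a paralogue of *Scd1*, had 2.50 CPM in the same library and 0 counts in the other 5. Both genes were singled out after their values had been seen.

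*Scd2*, the paralogue of *Scd1*, ran the other way in liver, with 29.0 and 24.6 CPM in RepB-/- and WT of replicate 1 and 6.53 to 10.3 CPM in the other livers, whereas *Scd1* was at 20.2 CPM or less in replicate 1. How reads of these paralogues were divided is not given in the sources used here.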
